A study of Mus musculus with 19 samples.

Results

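Transcript levels of 8 genes that set the direction of glucose flux in liver, Hk1, Hk2, Pklr, Pkm, Ldha, G6pc1, Fbp1 and Pck1, were described across 10 mouse liver tumours. The genes were taken by symbol from a table of 39179 genes, and each of the 8 was found under 1 Ensembl identifier. All mice of the series were male, heterozygous for Ctnnb1tm1Mmt, an allele that yields a stabilised β-catenin after Cre recombination, and homozygous for Gt(ROSA)26Sortm1(MYC)Djmy, a Cre-dependent human MYC transgene at the Rosa26 locus. The series lists 13 tumours and 3 control livers from mice given AAV8.TBG.PI.Cre.rBG at 640000000 genome copies per mouse, and 3 high AAV control livers from mice given 200000000000 genome copies. The TBG promoter restricts Cre to hepatocytes, so other cells of a tumour did not carry the activated alleles. Tumours 04 to 13 could be matched to a column of the table by their number, and the other 3 tumours and the control livers were not analysed here. Every value below is therefore a comparison between tumours of 1 genotype, and none is set against non-tumour liver. The mouse of origin and the age of each tumour were not given in the sources used here, so a p-value measures the spread between these 10 samples, some of which may share a mouse.

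Glycolysis turns glucose into pyruvate, and gluconeogenesis runs the pathway backwards to release glucose, with a separate set of enzymes at the irreversible steps. Normal hepatocytes use the L-type pyruvate kinase encoded by Pklr, and they export glucose through the gluconeogenic enzymes encoded by Pck1, Fbp1 and G6pc1. Fetal liver, many liver cancers and most non-parenchymal cells instead use the high-affinity hexokinases Hk1 and Hk2 and the pyruvate kinase gene Pkm. Ldha, whose enzyme turns pyruvate into lactate, is not assigned to either kind of cell here. Genes among Hk1, Hk2, Pkm and Ldha are known targets of hypoxia-inducible factors and of MYC.

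The genes were placed on the RefSeq annotation of GRCm38.p6, the assembly family that the submitters' processing notes name. Each lies on a different chromosome. Hk1 lies at positions 62268855 to 62379920 of chromosome 10, Hk2 at 82725025 to 82774454 of chromosome 6, Pklr at 89136122 to 89146815 of chromosome 3 and Pkm at 59656576 to 59679372 of chromosome 9. Ldha lies at 46842274 to 46855627 of chromosome 7, G6pc1 (named G6pc in that annotation) at 101367716 to 101377903 of chromosome 11, Fbp1 at 62864753 to 62888298 of chromosome 13 and Pck1 at 173153073 to 173159274 of chromosome 2. All 8 are protein-coding, and their counts cover exons only, without separating transcript isoforms.

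Since Hk1, Hk2, Pkm and Ldha rose with a score of hypoxia-target genes described further on, the 250 bases upstream of the RefSeq starts of all 8 genes were searched on both strands for ACGTG, the core of the hypoxia response element, for CACGTG, the E-box to which MYC and related factors can bind, and for TGACGTCA, the cAMP response element. Each CACGTG also holds ACGTG. Of 32851 mouse promoters of this length, 16.6% hold ACGTG, 6.02% hold CACGTG and 1.55% hold TGACGTCA. The Hk2 promoter, 1 of the 2 listed Pkm promoters and 1 of the 2 listed Ldha promoters hold ACGTG, and this Ldha promoter holds the other motifs as well. The other Pkm and Ldha promoters hold none of them. The promoters listed for Hk1, Pklr, G6pc1, Fbp1 and Pck1 hold no exact match. Variants of these elements were not searched, so that ttacgtca in the Pck1 window, for example, is not counted. The Hk2 and Ldha windows and 30 bases of the Pkm window are shown 5′ to 3′ on the gene's strand, with the motif matches in capitals, because they are the only windows with a match.
Hk2, chr6:82774455-82774704 (minus strand, GRCm38.p6): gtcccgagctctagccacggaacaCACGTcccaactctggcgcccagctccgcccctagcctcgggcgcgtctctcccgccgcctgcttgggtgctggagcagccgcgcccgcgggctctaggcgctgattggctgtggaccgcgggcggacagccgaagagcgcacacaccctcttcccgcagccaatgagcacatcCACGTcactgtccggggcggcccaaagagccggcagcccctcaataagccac
Ldha, chr7:46845554-46845803 (plus strand, GRCm38.p6): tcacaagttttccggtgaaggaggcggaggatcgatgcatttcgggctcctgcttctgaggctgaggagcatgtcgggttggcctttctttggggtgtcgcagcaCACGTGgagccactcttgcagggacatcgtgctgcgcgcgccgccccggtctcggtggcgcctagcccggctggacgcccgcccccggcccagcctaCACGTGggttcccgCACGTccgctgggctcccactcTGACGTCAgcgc
Pkm, chr9:59657140-59657169 (plus strand, GRCm38.p6): ctccgatccggtCACGTccgcgccgcagca
In Hk2 the matches begin 226 and 52 bases before the start. In the first listed Ldha promoter the E-boxes begin 145 and 48 bases before it, a further ACGTG match 34 bases and the cAMP response element 12 bases before it. The Pkm match begins 75 bases before the second listed start. A match is a description of the letters, and no binding was measured.

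The 10 libraries held between 11687034 and 36964427 counts assigned to genes, so that 3 counts corresponded to between 0.0812 and 0.257 CPM, the usual unit of a gene's count relative to the size of its library. The smallest count behind any value of the 8 genes was 57, for Hk1. Hepatocyte markers were abundant in every tumour, with a summed level of 34109 to 55905 CPM over 9 genes. Endothelial markers summed to 88.7 to 614 CPM over 12 genes, with tumours 07 and 09 highest, and stellate cell and fibroblast markers to 257 to 1856 CPM over 10 genes, with tumours 09 and 07 highest. Macrophage markers summed to 167 to 513 CPM (10 genes, 9 of them counted in every tumour), cholangiocyte markers to 13.7 to 145 CPM (6 genes, 5 counted in every tumour), red blood cell markers to 103 to 6200 CPM (6 genes) and lymphocyte and neutrophil markers to 1.48 to 25.1 CPM (11 genes, 6 counted in every tumour). Transcripts without a poly(A) tail were higher in tumours 05, 06 and 07 (47.4 to 83.7 CPM over 6 genes, 2 of them counted in every tumour) than in the other 7 (1.65 to 6.46 CPM). In bulk tissue, a change in the number of cells of a type and a change in RNA per cell cannot be told apart.

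The hexokinases were examined first. Hk1, the hexokinase of most adult tissues, was at 2.33 CPM in tumour 13, a median of 7.29 CPM and 31.5 CPM in tumour 05. Tumour 09 followed at 24.9 CPM, tumours 04, 06 and 07 were between 9.26 and 13.0 CPM, and tumours 10 to 13 were all at or below 3.60 CPM. The highest tumour exceeded the lowest 13.5-fold.

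Hk2, an inducible hexokinase that is scarce in normal hepatocytes, had a narrower base and 1 pronounced peak. It was at 27.3 CPM in tumour 08, at a median of 39.1 CPM and at 191 CPM in tumour 05. Tumour 09 was again second, at 81.4 CPM, and the other 8 tumours lay between 27.3 and 49.5 CPM. Hk1 and Hk2 thus shared their 2 highest tumours, but the order of the others differed, since tumours 12 and 13 held the lowest Hk1 and the highest Hk2 after tumours 05 and 09.

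Levels of different genes were compared only as CPM per kilobase of exon (CPM per kb). On this scale Hk2 exceeded Hk1 in all 10 tumours. The mean log2 ratio of Hk2 to Hk1 was 2.74 ± 1.06 (SD, n = 10), from 1.44 in tumour 07 to 4.32 in tumour 12, and with the length of the canonical transcripts it was 1.79. The ratio was not highest where either gene peaked, since in tumours 05 and 09 both genes were high.

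The pyruvate kinase genes moved over different ranges. Pklr, the gene of the liver and red cell enzyme, was at 111 CPM in tumour 06, at a median of 227 CPM and at 411 CPM in tumour 08, a 3.71-fold range. Tumour 10 was close to the highest, at 382 CPM, and tumours 05, 09 and 12 were at 151, 166 and 142 CPM.

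Pkm, which encodes the M1 and M2 pyruvate kinases, covered a 31.1-fold range. It was at 21.5 CPM in tumour 12, at a median of 96.2 CPM and at 667 CPM in tumour 05. Tumours 06, 09 and 04 followed at 263, 242 and 169 CPM, tumours 07, 10 and 08 were between 68.5 and 110 CPM, and tumours 11 to 13 were at or below 40.7 CPM. The count of the gene does not separate M1 from M2 transcripts.

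Per kilobase of exon, Pklr exceeded Pkm in 9 of 10 tumours. The mean log2 ratio of Pkm to Pklr was -2.91 ± 1.84 (SD, n = 10), from -4.80 in tumour 13 to 0.31 in tumour 05. Pkm made up 55.4% of the 2 genes' summed CPM per kb in tumour 05, 40.0% in tumour 06 and 29.1% in tumour 09, against a median of 7.75% and 3.48% in tumour 13. Of these high shares, that of tumour 06 joined a high Pkm with the lowest Pklr of all tumours. These shares depend on the length assigned to Pkm, whose 157 annotated transcripts together cover 13417 bases. With the length of the canonical transcript alone, 2448 bases, the mean log2 ratio was -0.59 and Pkm was the more abundant gene in 3 tumours, with 86.1% of the sum in tumour 05.

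**Figure D1:**
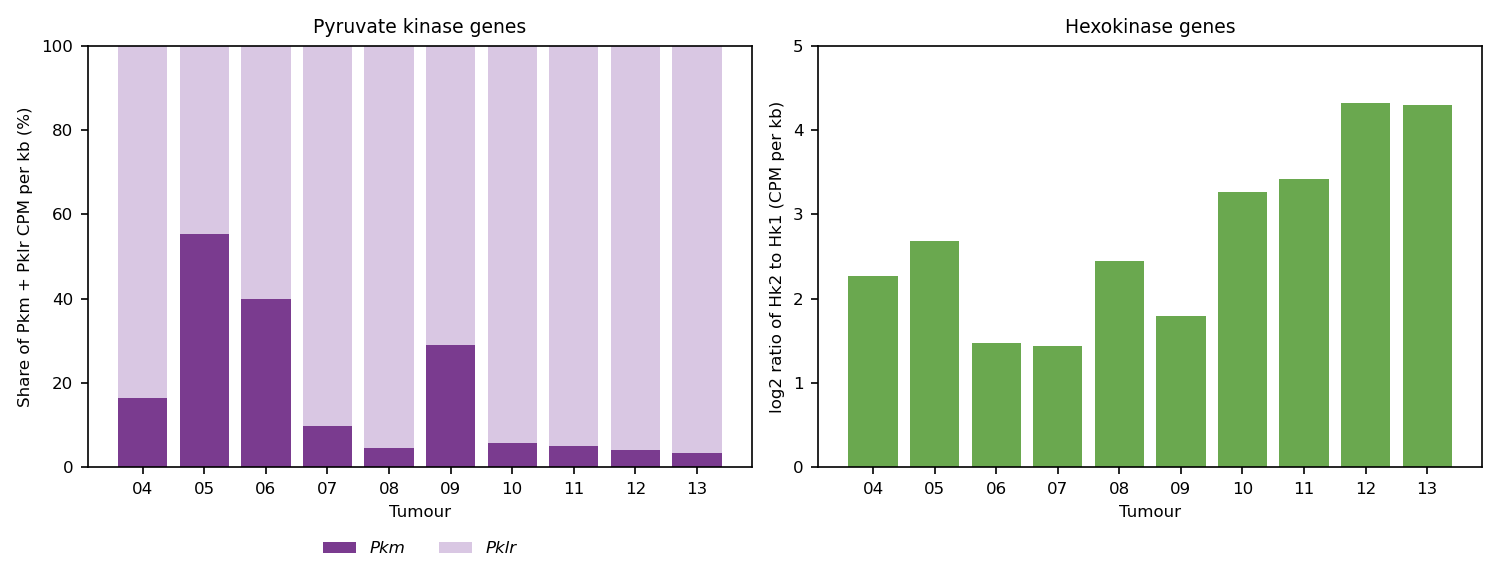
Share of each pyruvate kinase gene in the sum of Pkm and Pklr, in percent of CPM per kb of exon (left), and log2 ratio of Hk2 to Hk1 on the same scale (right), with 1 bar for each of tumours 04 to 13. Pkm exceeds Pklr in tumour 05 alone (55.4%), and the ratio of Hk2 to Hk1 is above 0 in every tumour, from 1.44 in tumour 07 to 4.32 in tumour 12.

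Ldha, which encodes the lactate dehydrogenase subunit that favours lactate formation, was abundant in every tumour and varied less. It was at 653 CPM in tumour 07, at a median of 812 CPM and at 1490 CPM in tumour 05, a 2.28-fold range. Tumours 05 and 06 (1451 CPM) stood above the others, of which tumour 09 was the highest at 968 CPM. Reads of Ldha can align to processed pseudogenes. Of these only Ldha-ps and Ldha-ps2 were examined, and they held at most 0.291% and 2.42% of the Ldha count. Reads listed as not unique were assigned to no gene, so these shares cannot show how far Ldha is undercounted.

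Among the gluconeogenic genes, G6pc1 encodes the glucose-6-phosphatase that performs the last step of glucose release. It was at 134 CPM in tumour 06, at a median of 329 CPM and at 761 CPM in tumour 08, a 5.69-fold range. Tumours 07 and 08 (748 and 761 CPM) lay above all others and tumours 05 and 06 (138 and 134 CPM) below all others, so that the highest G6pc1 was not found where Pkm or Ldha was highest.

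Fbp1, the gene of fructose-1,6-bisphosphatase, was the most even of the set. It was at 367 CPM in tumour 10, at a median of 511 CPM and at 690 CPM in tumour 11, a 1.88-fold range. Tumour 04 was almost as low as tumour 10, at 374 CPM, and tumour 12 almost as high as tumour 11, at 658 CPM.

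Pck1, the gene of cytosolic phosphoenolpyruvate carboxykinase, had the largest SD of log2 CPM of the 8 genes, although the fold range of Pkm was wider. It was at 16.1 CPM in tumour 07, at a median of 151 CPM and at 394 CPM in tumour 08, a 24.6-fold range. Tumour 05 was also low, at 21.6 CPM, and tumours 06, 11 and 12 were high, at 298, 298 and 357 CPM. Tumours 07 and 08, which had nearly the same G6pc1, held the lowest and the highest Pck1.

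**Figure D2:**
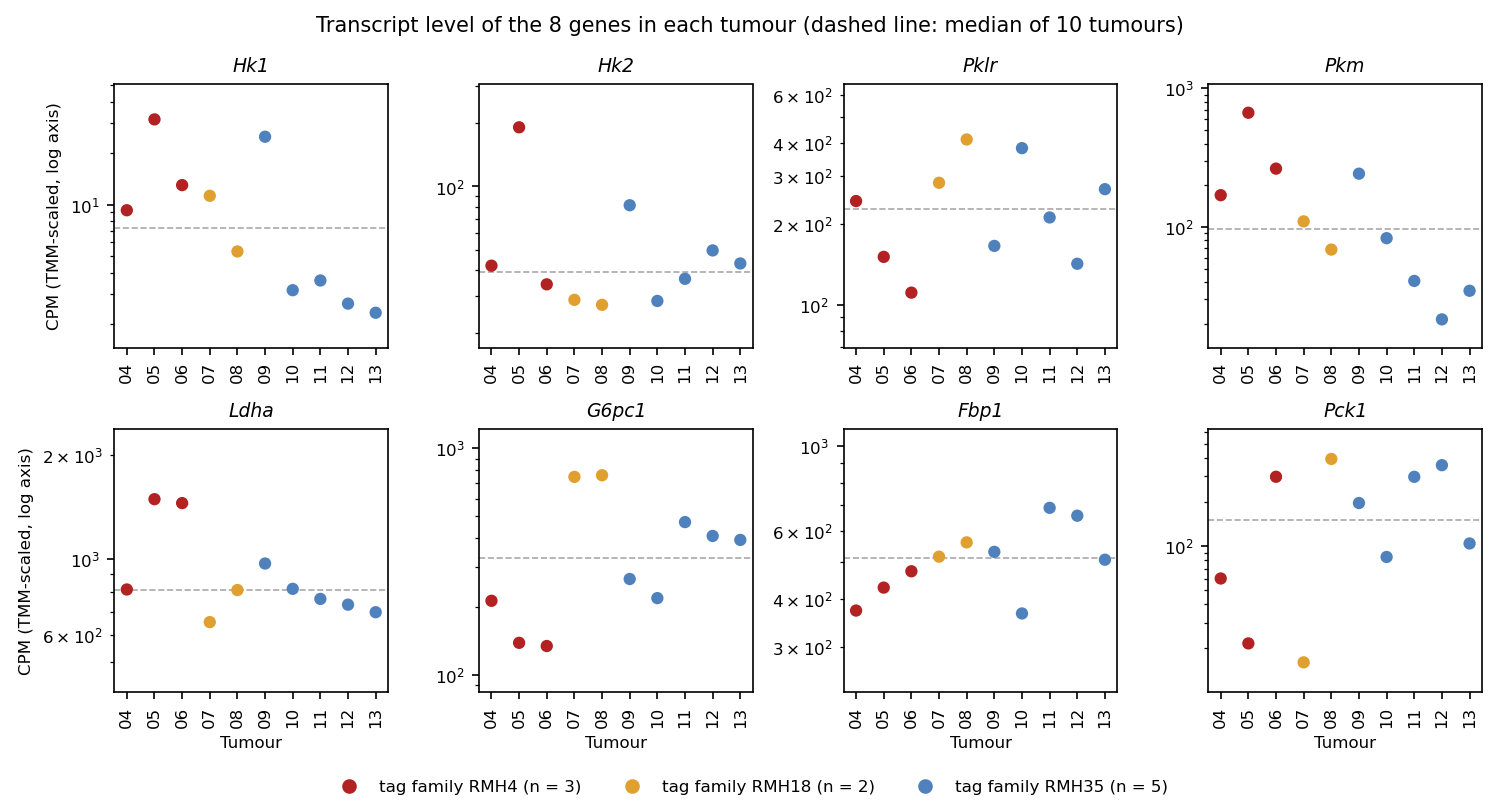
Level of each of the 8 genes in tumours 04 to 13, in TMM-scaled CPM on a log axis, with 1 point per tumour coloured by the first part of the tag in its column name and a dashed line at the median of the 10 tumours. Hk1, Hk2, Pkm and Ldha all peak in tumour 05, at 31.5, 191, 667 and 1490 CPM, whereas Fbp1 stays within a 1.88-fold range.

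In the order of median CPM per kb, Fbp1 (217), Ldha (171) and G6pc1 (135) came first, followed by Pklr (60.3), Pck1 (40.7), Pkm (7.17), Hk2 (4.73) and Hk1 (0.831). The ranges over tumours overlapped between every 2 neighbours in this order. With canonical transcript lengths Ldha (511) stood before Fbp1 (321), and the order of the other 6 genes was kept.

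The spread between tumours was summarised as the SD of log2 CPM over the 10 tumours. Pck1 (1.67), Pkm (1.53) and Hk1 (1.33) had an SD above 1, as did 5.17% of all 12462 genes with enough counts. G6pc1 (0.91), Hk2 (0.87) and Pklr (0.63) were below that limit but above the median of all genes, 0.33, as was Ldha (0.42). Fbp1 (0.31) was under that median. The filter treated the tumours as 1 group, so a gene that was low in some tumours could be missing from the share and the median of all genes. No tumour stood out for any of the 8 genes by the gap to its neighbour, the largest gap being that of tumour 05 for Hk2, at 0.439 of the whole range. Leaving out any 1 tumour kept the count of 3 genes with an SD above 1, and left Hk2 with an SD of 0.50 where tumour 05 was left out.

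Of 62 further genes of glucose metabolism and its regulation, 56 had enough counts, and their median SD was 0.42. An SD above 1 was found for 5 of the 56. These were Slc2a1 (1.57), the basal glucose transporter, Slc16a3 (1.86), a lactate exporter, Pfkp (1.67), the platelet-type phosphofructokinase, Ldhb (1.46), the other lactate dehydrogenase subunit, and Txnip (1.53), a glucose-induced inhibitor of glucose uptake. The first 3 peaked in tumour 05, at 334, 49.3 and 71.4 CPM, with medians of 22.1, 5.83 and 5.94 CPM. Txnip was highest in tumours 07 (741 CPM) and 05 (598 CPM), against a median of 77.0 CPM, and Ldhb in tumour 10, at 97.7 CPM against a median of 12.1 CPM. The liver glucose transporter gene Slc2a2 was more even, with an SD of 0.63. Fbp2, the muscle fructose-1,6-bisphosphatase, did not pass the filter and ranged from 0.592 CPM in tumour 12 to 45.3 CPM in tumour 05.

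Whether the genes varied with other programmes was asked by fitting every gene of the table on a score, the mean log2 CPM of a list of genes that excluded the 8 genes, with edgeR's quasi-likelihood test and Benjamini-Hochberg adjustment over all genes. A slope is the log2 change of a gene per log2 unit of the score. There were 6 scores, which gave 48 relations with the 8 genes. The hypoxia-target score, made from 13 genes without glycolytic enzymes, among them Vegfa, Bnip3 and Egln3, was 5.23 ± 0.90 log2 CPM (SD, n = 10). It was lowest in tumour 12 (4.23), had a median of 5.07 and was highest in tumour 05 (7.16), with tumours 04, 06 and 09 next (5.75, 5.70 and 5.72).

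Over all 10 tumours, 4 of the 8 genes rose with the hypoxia-target score and none fell, against 7.21% of all 12449 genes tested in either direction, 4.64% upwards and 2.57% downwards. These shares rested on tumour 05, without which 116 of 12621 genes passed, against 898 with it, and 134 of 12449 passed with the score of transcripts without a poly(A) tail as a second term. The slope was 1.66 ± 0.133 for Pkm (SE, edgeR adjusted p = 0.000238), 1.41 ± 0.211 for Hk1 (edgeR adjusted p = 0.00329), 0.68 ± 0.168 for Hk2 (edgeR adjusted p = 0.0330) and 0.37 ± 0.102 for Ldha (edgeR adjusted p = 0.0481). The other 4 genes had negative slopes that did not pass the test, -0.28 ± 0.216 for Pklr, -0.67 ± 0.274 for G6pc1, -0.19 ± 0.0999 for Fbp1 and -0.90 ± 0.519 for Pck1, with edgeR adjusted p between 0.155 and 0.451. DESeq2 called G6pc1 as well (adjusted p = 0.0347), among 1679 of 12449 genes.

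The 4 calls were not equally stable. None of them held with the tag of the column names as a block, which compares only tumours of the same tag, or within tumours 04 to 07 alone. By edgeR 0 of 12449 genes passed with the block (492 at an unadjusted p below 0.05) and 0 of 12883 within the 4 tumours (1285 at an unadjusted p below 0.05), and DESeq2 was not run for these fits. With the block the slope was 1.22 ± 0.286 for Pkm, 1.56 ± 0.509 for Hk1, 1.68 ± 0.235 for Hk2 and 0.07 ± 0.196 for Ldha (SE, edgeR p = 0.0029, 0.0156, 0.000107 and 0.738, adjusted p = 0.998, 0.998, 0.664 and 0.998). Within tumours 04 to 07 it was 1.23 ± 0.230 for Pkm, 0.81 ± 0.211 for Hk1, 1.44 ± 0.162 for Hk2 and 0.46 ± 0.309 for Ldha (SE, edgeR adjusted p = 0.322, 0.374, 0.307 and 0.624). Of the other 4 genes, G6pc1 (0.12 ± 0.178) and Fbp1 (0.08 ± 0.227) had positive slopes with the block (SE, edgeR adjusted p = 0.998 for both). Those of Pklr (-0.14 ± 0.391) and Pck1 (-1.98 ± 1.30) were negative with it (SE, edgeR adjusted p = 0.998 for both).

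Pkm passed under 18 of 20 alternative settings, all but these 2, and its slope was between 1.22 and 2.07 over the 20. Hk1 passed under 17, and also missed the threshold without tumours 05 and 09 together (slope 1.48, edgeR adjusted p = 0.0668). Hk2 passed under 13, and its slope was 0.18 without tumour 05 (edgeR adjusted p = 0.764), so that its relation to the score rested on that tumour, and the adjusted p was 0.0639 without tumour 11. Over the 20 settings the slope of Hk2 ran from -0.19, without tumours 05 and 09 together, to 1.68 with the tag as a block. Ldha passed under 6. Its edgeR adjusted p was 0.308 without tumour 05, 0.0730 without 08, 0.0534 without 09, 0.0693 without 10, 0.0831 without 11, 0.0936 without 12 and 0.0923 without 13. The slope of Ldha in these 7 fits was between 0.37 and 0.39, so that its size was close to that over all tumours.

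The correlation of log2 CPM with the score over 10 tumours was r = 0.970 for Pkm (permutation test with 100000 resamples, p = 2e-05), with rho = 0.939 (permutation test, p = 0.00021). For Hk1 it was r = 0.908 (permutation test, p = 9e-05), with rho = 0.903 (permutation test, p = 0.00075). Without tumours 05 and 12, the farthest from the median score, r was 0.978 for Pkm and 0.879 for Hk1 (exact permutation tests, p = 0.000372 and 0.0064, n = 8). For Hk2 r was 0.689 but rho only 0.236 (permutation tests, p = 0.0361 and 0.513), and r was 0.323 without the same 2 tumours (exact permutation test, p = 0.468). For Ldha r was 0.788 and rho 0.685 (permutation tests, p = 0.00461 and 0.0351), and r was 0.594 without them (exact permutation test, p = 0.110).

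**Figure D3:**
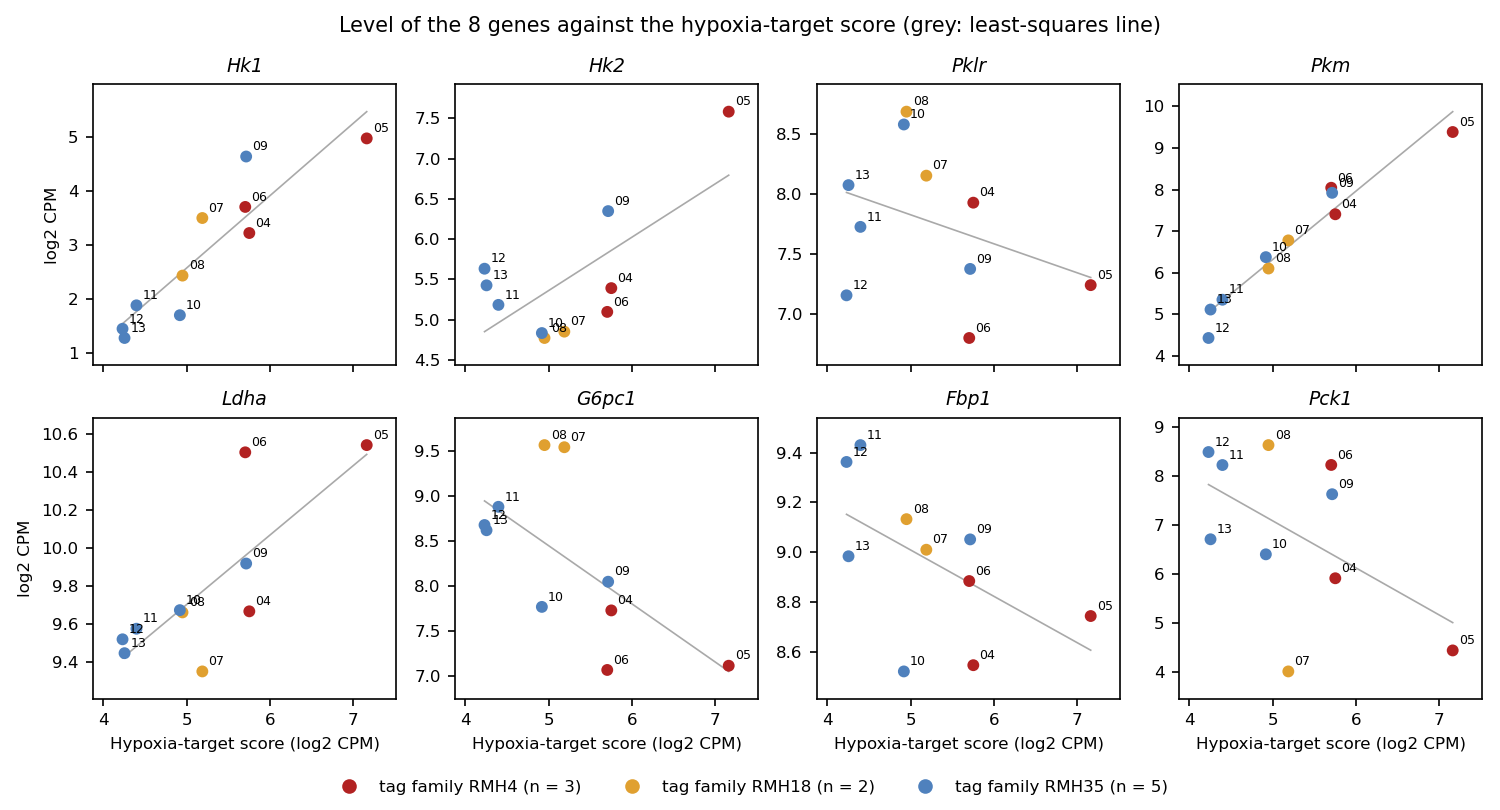
Level of each of the 8 genes (log2 CPM) against the hypoxia-target score (mean log2 CPM of 13 genes), with 1 numbered point per tumour and a least-squares line. The points of Pkm lie close to the line over the whole range (r = 0.970), whereas those of Hk2 are carried by tumours 05 and 09.

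Other measures moved with the score as well. It was correlated with the endothelial score (r = 0.560) and with the score of transcripts without a poly(A) tail (r = 0.619), and inversely with the β-catenin target score (r = -0.566) and the proliferation score (r = -0.560), which were not fitted as second terms. The deepest libraries, tumours 12 and 13, had the lowest scores. With the endothelial score as a second term, Pkm (slope 1.53, edgeR adjusted p = 0.000679), Hk1 (1.04, 0.00544), Hk2 (0.88, 0.0255) and Ldha (0.47, 0.0426) still passed, and G6pc1 fell with the score (-0.93, 0.0492). Of the 20 alternative settings, G6pc1 passed under 2 only, this one and DESeq2, and its slope was 0.12 with the tag as a block. With log2 library size as a second term, Pkm (slope 1.54, edgeR adjusted p = 0.00176), Hk1 (1.10, 0.0181) and Hk2 (0.92, 0.0255) passed and Ldha did not (0.45, 0.0660). With the score of transcripts without a poly(A) tail, Pkm (1.61, edgeR adjusted p = 0.00461) and Hk1 (1.38, 0.0397) passed, while Hk2 (0.89, 0.110) and Ldha (0.35, 0.219) did not. Over all genes 835 of 12449 passed with the endothelial term and 576 of 12449 with log2 library size. Within tumours 08 to 13, the 6 libraries in which such transcripts were lowest, Pkm (2.07, edgeR adjusted p = 0.00595) and Hk1 (2.11, 0.0167) passed, while Hk2 (0.46, 0.577) and Ldha (0.29, 0.457) did not. Pklr had a positive slope there (0.17, edgeR adjusted p = 0.927), and those of G6pc1 (-0.29), Fbp1 (-0.19) and Pck1 (-0.19) were negative. In these 6 tumours r with the score was 0.979 for Pkm, 0.918 for Hk1, 0.977 for Ldha and 0.379 for Hk2 (exact permutation tests, p = 0.00278, 0.0194, 0.00556 and 0.457, n = 6). In the same 6 tumours r with the endothelial score was 0.953 for Hk1, 0.874 for Pkm, 0.877 for Ldha and 0.565 for Hk2 (exact permutation tests, p = 0.0264, 0.0319, 0.0375 and 0.268, n = 6). The part of other cell types and of library quality in these slopes was not tested beyond these terms.

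The further genes of the pathway were read from the same fit. Of 56 tested, 12 rose with the score and 1 fell. Of 14 genes of middle glycolysis 7 rose, and the median slope of the 14 was 0.32, against 0.000487 over all genes. These 7 were Pfkp (1.84 ± 0.157), Aldoa (0.90 ± 0.126), Pfkl (0.74 ± 0.0994), Gpi1 (0.66 ± 0.0680), Tpi1 (0.57 ± 0.0641), Pgk1 (0.49 ± 0.0816) and Gapdh (0.34 ± 0.0905), each a slope with its SE. They encode enzymes between glucose 6-phosphate and 3-phosphoglycerate. Gapdh and Pgk1 have many processed pseudogenes, so their counts are uncertain.

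Of 5 transporters tested, Slc16a3 (2.06 ± 0.238) and Slc2a1 (1.65 ± 0.156) rose, and the liver glucose transporter Slc2a2 had a slope of -0.48 that did not pass (edgeR adjusted p = 0.0744). Of 6 genes that control pyruvate dehydrogenase, the kinases Pdk1 (0.55 ± 0.121) and Pdk4 (0.78 ± 0.202) rose. Pfkfb1, the liver form of the enzyme that makes and removes fructose 2,6-bisphosphate, was the gene that fell (-0.61 ± 0.129, edgeR adjusted p = 0.0189). Of 15 regulators, the glucocorticoid receptor gene Nr3c1 rose (0.27 ± 0.0698, edgeR adjusted p = 0.0367). None of 9 other gluconeogenic genes and none of 3 other genes of hexose phosphorylation passed, with median slopes of -0.16 and -0.13. Without tumour 05 the count of pathway genes called was 5 of 57, and without tumours 05 and 09 together it was 2 of 57. It was 8 of 56 with the score of transcripts without a poly(A) tail as a second term, 4 of 58 within tumours 08 to 13 and 0 of 56 with the tag as a block. The fall of Pfkfb1 did not pass in any of these settings, nor with the endothelial score or log2 library size as a second term. Over all genes 26 of 12756 passed without tumours 05 and 09 and 296 of 13201 within tumours 08 to 13.

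**Figure D4:**
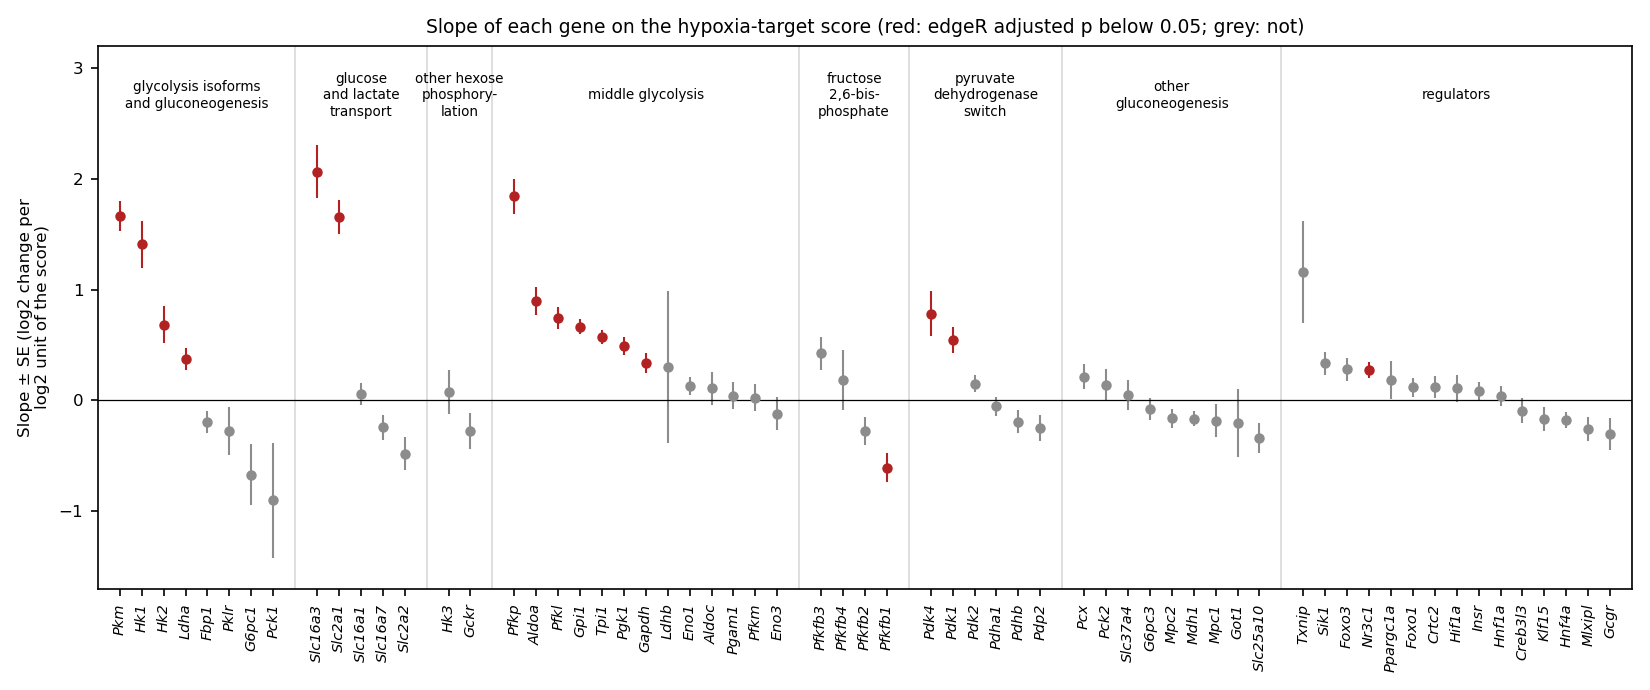
Slope on the hypoxia-target score with its SE (log2 change per log2 unit) of the 8 genes and of 54 of the 56 further genes of the pathway, grouped by list, over 10 tumours. Genes past an edgeR adjusted p of 0.05 are red, namely 4 of the 8 genes and 13 of the 56, of which 12 have positive slopes and Pfkfb1 a negative slope.

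None of the 8 genes passed the edgeR test for the other 5 scores. The β-catenin target score (14 genes, Glul and Axin2 among them) was 8.47 ± 0.38 log2 CPM (SD, n = 10), and 0.121% of 12448 genes passed. Its slopes were 1.84 ± 0.503 for G6pc1, 1.27 ± 0.379 for Pklr and -0.90 ± 0.244 for Ldha (SE, edgeR adjusted p = 0.156, 0.170 and 0.153), and DESeq2 called these 3 genes (adjusted p = 0.0109, 0.0263 and 0.0263) among 408 of 11481 genes. Over all tumours r was 0.739 for G6pc1, 0.734 for Pklr and -0.792 for Ldha (permutation tests, p = 0.016, 0.017 and 0.00525, n = 10), with rho = 0.697, 0.758 and -0.685 (permutation tests, p = 0.0302, 0.0143 and 0.0342, n = 10). Without tumours 06 and 09 r was 0.696, 0.547 and -0.712 (exact permutation tests, p = 0.0552, 0.160 and 0.0372, n = 8). Within tumours 08 to 13 the correlations with that score were 0.256 for G6pc1, 0.572 for Pklr and -0.636 for Ldha (exact permutation tests, p = 0.610, 0.229 and 0.197, n = 6), and rho was 0.0286, 0.657 and 0.0286. For Hk2 the slope was -1.76 ± 0.660 (SE, edgeR adjusted p = 0.249). Its r was -0.539 over all tumours (rho = -0.6, permutation tests, p = 0.105 and 0.0736, n = 10), -0.782 without tumours 06 and 09 (exact permutation test, p = 0.0099, n = 8) and -0.911 within tumours 08 to 13 (rho = -0.829, exact permutation test for r, p = 0.0194, n = 6).

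The score of periportal hepatocyte genes (11 genes) was the one with which Pck1, itself periportal in normal liver, had its steepest positive slope relative to its error, 1.05 ± 0.305 (SE, edgeR p = 0.00523, adjusted p = 0.923). By edgeR 0% of 12451 genes passed for this score, with 592 at an unadjusted p below 0.05, and DESeq2 called 26 genes with Pck1 among them (adjusted p = 0.0367). The correlation of Pck1 with the score was r = 0.798 and rho = 0.794 (permutation tests, p = 0.00679 and 0.00841, n = 10), and without tumours 08 and 12 it was 0.705 (exact permutation test, p = 0.0529, n = 8). Within tumours 08 to 13 it was 0.758 (exact permutation test, p = 0.104, n = 6). The slopes of G6pc1 (0.09 ± 0.243) and Fbp1 (0.11 ± 0.0947) on this score were small against their errors.

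For the score of MYC target genes of ribosome biogenesis (17 genes), 0% of 12445 genes passed by edgeR, with 826 at an unadjusted p below 0.05, and DESeq2 called 49 of the 7614 genes to which it gave an adjusted p. Pklr had a slope of -2.17 ± 0.554 (SE, edgeR p = 0.00221, adjusted p = 0.448), and DESeq2 called it (adjusted p = 0.0348). Its r with the score was -0.794 over all tumours, -0.617 without tumours 06 and 12 and -0.781 within tumours 08 to 13 (permutation test p = 0.00305, n = 10, and exact permutation tests p = 0.108, n = 8, and p = 0.101, n = 6), with rho = -0.770 over all tumours (permutation test, p = 0.0125). For the proliferation score (16 genes), 0% of 12446 genes passed by edgeR, with 962 at an unadjusted p below 0.05 and 66 called by DESeq2, none of them among the 8. Pck1 had r = 0.638 and rho = 0.770 with it (permutation tests, p = 0.0483 and 0.0128, n = 10), r = 0.408 without tumours 05 and 08 (exact permutation test, p = 0.318, n = 8) and r = 0.190 within tumours 08 to 13 (exact permutation test, p = 0.704, n = 6). The proliferation and periportal scores were themselves correlated (r = 0.526). For the endothelial score (11 genes), 3.09% of 12451 genes passed. Hk1 had a slope of 1.17 ± 0.329 on it (SE, edgeR adjusted p = 0.0918), which passed without tumour 05 (adjusted p = 0.00947), without tumour 07 (adjusted p = 0.0190) and with DESeq2 (adjusted p = 0.000254), where 473, 426 and 708 genes passed in all, against 385 over the 10 tumours with edgeR. The r of Hk1 with the endothelial score was 0.767 and rho 0.733 (permutation tests, p = 0.0112 and 0.0202, n = 10), and r was 0.879 without tumours 07 and 11 (exact permutation test, p = 0.00744, n = 8). Hk1 is also used by vascular and stromal cells, and the part of these cells in its level was not tested.

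The column names of the table carry a tag, whose first part forms 3 families, tumours 04 to 06, tumours 07 and 08, and tumours 09 to 13. Its meaning is not given in the sources used here. Between the families 0.00802% of 12462 genes differed by edgeR (1 gene), and none of the 8 genes passed. G6pc1 came nearest, with 134 to 212 CPM in tumours 04 to 06, 748 and 761 CPM in tumours 07 and 08 and 218 to 472 CPM in tumours 09 to 13 (edgeR p = 0.000143, adjusted p = 0.125). G6pc1 passed without tumour 04 (adjusted p = 0.0396) and without tumour 09 (adjusted p = 0.0373), where Hk1 (adjusted p = 0.0440) and Pkm (adjusted p = 0.0449) passed as well. It also passed with no filter on low counts (adjusted p = 0.0464) and with DESeq2 (adjusted p = 2.2e-06). Over all genes 88 passed without tumour 04, 175 without tumour 09, 27 with no filter and 504 with DESeq2. Pck1 ranged from 16.1 to 394 CPM within the family of tumours 07 and 08 alone, so its range was not one between families.

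Relations among the 8 genes were tested for 8 pairs, each with a fit of all genes on the log2 CPM of the first gene of the pair. Pkm and Ldha rose together. Their r was 0.799 and rho 0.782 (permutation tests, p = 0.00292 and 0.0108, n = 10), the slope of Ldha on Pkm was 0.22 ± 0.0581 (SE, edgeR adjusted p = 0.0418), and 7.14% of all genes passed in that fit. Without tumours 05 and 12 r was 0.690 (exact permutation test, p = 0.0375, n = 8), and within tumours 08 to 13 it was 0.946 (exact permutation test, p = 0.00694, n = 6). As deviations from the means of tumours with the same tag, r was 0.245 (exact permutation test over 48 orders, p = 0.625).

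No other tested pair passed. Hk1 and Hk2 had r = 0.622 but rho = 0.261 (permutation tests, p = 0.0414 and 0.469, n = 10, edgeR adjusted p = 0.0724 with 4.31% of all genes passing), and r was -0.363 without tumours 05 and 09 (exact permutation test, p = 0.362, n = 8). Hk2 and Pkm had r = 0.576 and rho = 0.200 (permutation tests, p = 0.0794 and 0.583, n = 10, edgeR adjusted p = 0.350 with 0% of genes passing and 1268 at an unadjusted p below 0.05). Without tumours 05 and 09 their r was -0.439 (exact permutation test, p = 0.270, n = 8). Within tumours 08 to 13 r was 0.638 for Hk1 and Hk2 and 0.358 for Hk2 and Pkm (exact permutation tests, p = 0.186 and 0.478, n = 6). These positive correlations of Hk2 therefore over all tumours rested on the 2 tumours in which it was highest.

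Pklr and Pkm, the alternative pyruvate kinase genes, were not inversely related beyond the error, with r = -0.338 and rho = -0.309 (permutation tests, p = 0.336 and 0.385, n = 10, edgeR adjusted p = 0.635). Without tumours 06 and 08 r was -0.184 (exact permutation test, p = 0.663, n = 8). Pklr and G6pc1, both genes of differentiated hepatocytes, had r = 0.567 and rho = 0.564 (permutation tests, p = 0.0888 and 0.0958, n = 10, edgeR adjusted p = 0.587), and r = 0.193 without the same tumours (exact permutation test, p = 0.648, n = 8). As deviations from the means of tumours with the same tag, r of Pklr and G6pc1 was negative. In the subset of tumours 08 to 13 r was 0.125 for Pklr and Pkm and 0.192 for Pklr and G6pc1 (exact permutation tests, p = 0.828 and 0.683, n = 6). In the fit on Pklr 0.00803% of all genes passed.

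No pair of gluconeogenic genes passed the edgeR test. G6pc1 and Fbp1 had r = 0.609 and rho = 0.721 (permutation tests, p = 0.0636 and 0.0224, n = 10, edgeR adjusted p = 0.361), with r = 0.651 without tumours 06 and 08 (exact permutation test, p = 0.0828, n = 8). G6pc1 and Pck1 had r = 0.135 and rho = 0.273 (permutation tests, p = 0.705 and 0.449, n = 10, edgeR adjusted p = 0.755), with r = 0.142 without the same tumours (exact permutation test, p = 0.730, n = 8). Leaving out 1 tumour at a time gave r of G6pc1 and Pck1 between -0.131 and 0.607. Fbp1 and Pck1 had r = 0.552 and rho = 0.600 (permutation tests, p = 0.101 and 0.0732, n = 10, edgeR adjusted p = 0.662), with r = 0.598 without tumours 04 and 10 (exact permutation test, p = 0.105, n = 8). For tumours 08 to 13 alone r was 0.630 for G6pc1 and Fbp1, 0.738 for G6pc1 and Pck1 and 0.836 for Fbp1 and Pck1 (exact permutation tests, p = 0.185, 0.0972 and 0.0236, n = 6). In the fits on G6pc1 and on Fbp1 0% of all genes passed by edgeR, with 1880 and 905 at an unadjusted p below 0.05, and DESeq2 was not run for these fits.

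**Figure D5:**
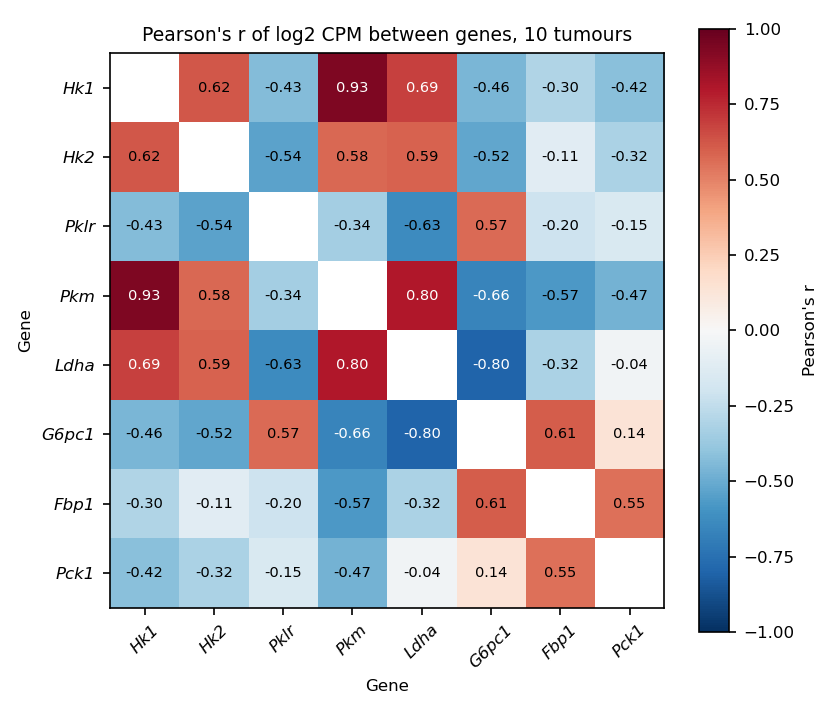
Pearson's r of log2 CPM over 10 tumours for each of the 28 pairs among the 8 genes, from -1 (blue) to 1 (red). The highest value is that of Hk1 and Pkm (0.93) and the lowest that of Ldha and G6pc1 (-0.80), neither of which was among the 8 pairs tested.

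Across all 28 pairs, given as a description only, r was highest for Hk1 and Pkm (0.930) and lowest for Ldha and G6pc1 (-0.802). All 6 pairs among Hk1, Hk2, Pkm and Ldha had a positive r (0.576 to 0.930), and all 12 pairs of 1 of these genes with G6pc1, Fbp1 or Pck1 had a negative r (-0.802 to -0.0371). Pklr had a positive r with G6pc1 (0.567) and a negative r with each of the other 6 genes.

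For each gene, up to 2 protein-coding genes with the most similar profile are given, by Pearson's r of log2 CPM over the 10 tumours, among 11214 genes. For Pkm, Iqgap1 (r = 0.974) is given. Hk1 was most similar to Far1 (0.980) and Ier3 (0.974), Hk2 to Fnip1 (0.940) and Nr3c1 (0.918), and Ldha to Xpnpep1 (0.969) and Hspb8 (0.968). Pklr was most similar to Sort1 (0.978) and Olig1 (0.944), G6pc1 to Coq8a (0.922) and Camk1d (0.915), and Fbp1 to Upf3b (0.908) and Nuak2 (0.905). Pck1 was most similar to Mup20 (0.950), a gene of the major urinary protein family, whose members resemble each other so that its count may be uncertain, and to Ppp6r3 (0.943). With so many genes and 10 tumours, the highest r of a gene is large by selection, and no test was made.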

How the data were processed

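RNA-seq of 10 tumours was analysed from the table the authors deposited, which holds raw read counts per Ensembl gene. The submitters' processing notes name GRCm38, TopHat2 and HTSeq, and the table ends in 5 HTSeq summary lines, although the study's methods name other tools. These lines were left out of library sizes, and the reads listed as not unique made up 45.4% to 57.9% of each column, so genes with near-identical copies are undercounted. Tumours were matched to columns by the number in their title, on the assumption that it is the library number. Of 19 columns, 9 were not used. Symbols were found for 34199 of 39179 genes.

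Counts were scaled by TMM, and edgeR's filterByExpr kept 12462 genes. Log2 CPM used a prior count of 2. Models were fitted over all genes with edgeR's quasi-likelihood test (edgeR 4.0.16, limma 3.58.1, R 4.3.3), Benjamini-Hochberg adjustment and a threshold of 0.05, with DESeq2 1.42.0 as an alternative. The SE of a slope is its size divided by the root of the F statistic. Permutation tests were two-sided, computed with NumPy 2.4.6 (ranks from SciPy 1.17.1), and exact below 10 values. Other alternatives were another scaling, prior count, filter and gene length, a technical covariate, and leaving out each tumour. The fits were tested on simulated counts. Exon lengths came from GENCODE M39 and positions and promoters from RefSeq GRCm38.p6. Named genes were the 8 genes, fixed pathway lists and, for each of the 8, the 2 protein-coding genes with the highest r. The genes and lists were chosen with earlier results of these data known. Some genes that these rules name are not reported here.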

Additional observations from a re-analysis of the deposited data

Results flagged for a closer look

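Each of 16 measures (the 8 genes, 2 isoform ratios and 6 scores) was examined for a tumour far from the other 9, by the gap to its nearest neighbour as a share of the whole range. The hypoxia-target score of tumour 05, with which the levels of Hk1, Hk2, Pkm and Ldha were compared, was far above the others, with a gap of 0.481 of the range. The score of MYC target genes was far above the others in tumour 06, with a gap of 0.488 of the range. By chance about 1 in 20 groups, or 5%, would be singled out, and 2 of 16 were.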

How the results depend on the processing

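The count of 3 genes with an SD above 1 was the same in all alternatives run, and 8 rather than 5 pathway genes exceeded it with no filter. With canonical transcript lengths, chosen after seeing the data, the mean log2 ratio of Pkm to Pklr was -0.59. The genes called with the hypoxia-target score went from 4 to 2 with the poly(A)-lacking RNA term, 2 within tumours 08 to 13, 1 without tumours 05 and 09, 0 within tumours 04 to 07 and 0 with the tag as a block. In these settings 134, 296, 26, 0 and 0 genes passed in all, and the last 4 settings were chosen after seeing the data. Leaving out 1 tumour gave 2 to 4, with 116 to 1165 genes passing in all. DESeq2 called 1 of the 8 genes for the periportal score, 3 for β-catenin targets, 1 for MYC targets, 1 for the endothelial score and 1 between tag families, where edgeR called 0, and 1 was called between families with no filter. Over all genes these 5 DESeq2 fits called 26, 408, 49, 708 and 504, and the fit with no filter called 27. Leaving out 1 tumour gave 0 to 1 for the endothelial score and 0 to 3 between families, with 280 to 473 and 0 to 175 genes passing in all. The cause of these shifts was not tested.

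Within tumours 08 to 13, r was 0.125 for Pklr and Pkm, the opposite sign, 0.638 for Hk1 and Hk2 and 0.836 for Fbp1 and Pck1. With poly(A)-lacking RNA regressed out, r was 0.631 for Hk1 and Hk2 and -0.0382 for G6pc1 and Pck1, the opposite sign. As deviations from tag means, r was 0.740 for Hk1 and Hk2, 0.245 for Pkm and Ldha, -0.489 for Pklr and G6pc1, the opposite sign, and 0.558 for Fbp1 and Pck1. Leaving out 1 tumour gave 0.346 to 0.701 for Hk1 and Hk2, 0.130 to 0.706 for Hk2 and Pkm, 0.415 to 0.759 for Pklr and G6pc1, -0.131 to 0.607 for G6pc1 and Pck1 and 0.474 to 0.728 for Fbp1 and Pck1. No analysis paired between groups was possible because the labels share replicate numbers between groups only, and 1 group, the tumours, could be matched to columns. Depth limits Hk1 most, with 57 counts in its lowest library.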
